A study of Papilio xuthus with 16 samples.

Results

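Bilin binding protein 1 (BBP1, gene number Px-0010), bilin binding protein 2 (BBP2, Px-0024) and yellow-related gene (YRG, Px-0080) were followed in the epidermis of larvae of Papilio xuthus, a swallowtail butterfly. Their probes were taken as all those whose name begins with the sequence identifier paired with each gene number, which gave 7 probes for BBP1, 13 for BBP2 and 7 for YRG. The 3 genes thus stood for 27 of 8697 P. xuthus probes and for 3 of 3380 P. xuthus sequences on the array. The study dissected 6 regions at 11 stages and hybridised each marking and its pale neighbour to the same one of 16 two-colour Agilent arrays, 32 samples in all. In the third instar, whose molt gives another mimetic, bird-dropping-like larva, the mimetic white region (abdominal segments 2 to 4) was paired with the mimetic black region (abdominal segments 4 and 5). Samples were taken between molts (intermolt) and then 0, 4, 8, 11 and 16 h into the molt, timed from the moment the old head capsule slips. In the fourth instar, whose molt gives the cryptic green larva, thoracic green (thoracic segment 2) was paired with the eyespot (thoracic segment 3), and abdominal green (abdominal segments 3 and 4) with the V-shaped marking (abdominal segments 4 and 5). Samples were taken at intermolt and 1, 4, 10 and 13 h into the molt. All larvae were untreated, reared on a host plant under long days, and came from a dealer, from another laboratory or from the field. How many larvae made up a sample is not given in the sources used here.

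Every pale region carried the dye Cy3 and every dark region Cy5, with no dye swap, so dye, marking and body segment cannot be told apart. There was 1 array for each stage and comparison. Stages therefore served as replicates when regions or instars were compared. A p-value there measures the spread between stages and not between larvae. The comparisons of a dark with a pale region were fitted together to all 16 arrays and shared 1 estimate of that spread. An SE or p-value of 1 such comparison thus also holds the spread of the others. Third-instar 8 and 11 h and fourth-instar 4, 10 and 13 h lay on 1 slide, and the other stages on another. A change between stages on different slides cannot be told apart from a difference between slides, as signals were not scaled between arrays. Per sample, 78.0% to 88.5% of the P. xuthus probes were well above background by the scanner software's call. The array of the V-shaped marking at 1 h held the most outlier spots, against at most 21 on any other array, and 2 of them were BBP2 spots, so BBP2 had 11 probes there. No member spot was saturated. The 5 cuticle genes used as epidermal markers were detected in every sample. Of 12 muscle genes at least 11 were detected in every sample, with summed signals of 234000 to 1864000, so the dissected epidermis held muscle transcripts throughout.

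Bilin binding proteins are lipocalins, small secreted proteins that fold into a barrel around a hydrophobic ligand, here the blue bile pigment biliverdin. The study treats those of Papilio as putative pigment binders, and these arrays measured RNA and not binding. In green caterpillars blue bilins and yellow carotenoids lie together in the integument, and their mixture gives the leaf colour, whereas melanin gives the dark markings. YRG takes its name from its reported association with yellow larval coloration in Papilio. In bulk epidermis fewer cells of a type and less RNA per cell cannot be told apart.

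The sequences below show how far the 2 bilin binding proteins and their nearest relatives on the array, BBP3 (Px-0106) and BBP4 (Px-4030), resemble each other at the codons of the G-x-W motif that marks lipocalins, printed in capitals. They are coding sequence from the study's own sequence table, and the YRG line gives the first 60 coding bases with the start codon in capitals.
BBP1: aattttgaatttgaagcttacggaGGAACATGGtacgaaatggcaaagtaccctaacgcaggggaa
BBP2: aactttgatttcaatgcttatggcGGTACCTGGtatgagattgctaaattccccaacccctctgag
BBP3: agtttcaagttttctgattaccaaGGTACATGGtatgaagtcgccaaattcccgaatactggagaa
BBP4: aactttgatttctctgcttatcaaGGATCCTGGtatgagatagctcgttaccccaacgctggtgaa
YRG: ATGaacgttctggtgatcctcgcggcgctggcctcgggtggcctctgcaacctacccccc
BBP1 and BBP2 shared 44 of the 66 bases of this stretch (66.7%) and 113 of 197 aligned residues (57.4%). The motif began at residue 40 of BBP1 and residue 42 of BBP2. By the share of aligned residues BBP1 was closer to BBP4 (110 of 181, 60.8%) than to BBP2. The BBP4 peptide was shorter (182 residues, against 198 in BBP1 and 213 in BBP2), so these shares rest on unlike lengths. BBP2 was closest to BBP1 by residues, whereas over the printed stretch BBP2 shared most bases with BBP4 (49 of 66, 74.2%).

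The precision of a value can be read from the BBP2 probes, because 2 of them carried the same sequence, whose coding part ends with the stop codon in capitals.
BBP2 duplicated probe: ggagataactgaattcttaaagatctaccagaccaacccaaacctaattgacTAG
In the 27 samples where both copies were well above background their log2 signals differed with an SD of 0.11. Their log2 ratios of dark to pale differed with an SD of 0.08 and by at most 0.18 over 13 arrays. Differences between the probes of a gene, given below as ranges or SDs, were larger than this, and differences between larvae were not measured.

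BBP1, a putative carrier of blue pigment, was below background in the third instar before the molt and came on at head capsule slippage. It was then higher in mimetic black than in mimetic white for most of the molt. Levels are medians over the probes of the scanner's processed signal, in arbitrary units, and compare only within a gene. At intermolt the medians were 6.94 in white and 6.27 in black, and 0 of 7 probes were well above background in either. At 0 h they were 128 and 1020, at 4 h 34.1 and 428, at 8 h 34.0 and 2460, at 11 h 335 and 6250, and at 16 h 302 and 236, in white and black. Black thus exceeded white at the 4 stages from 0 to 11 h, while at intermolt and 16 h the regions lay close together. Black peaked at 11 h and was 20.1-fold lower, as the mean over probes, at 16 h, whereas white was 1.09-fold higher. The 11 and 16 h arrays lay on different slides.

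**Figure D1:**
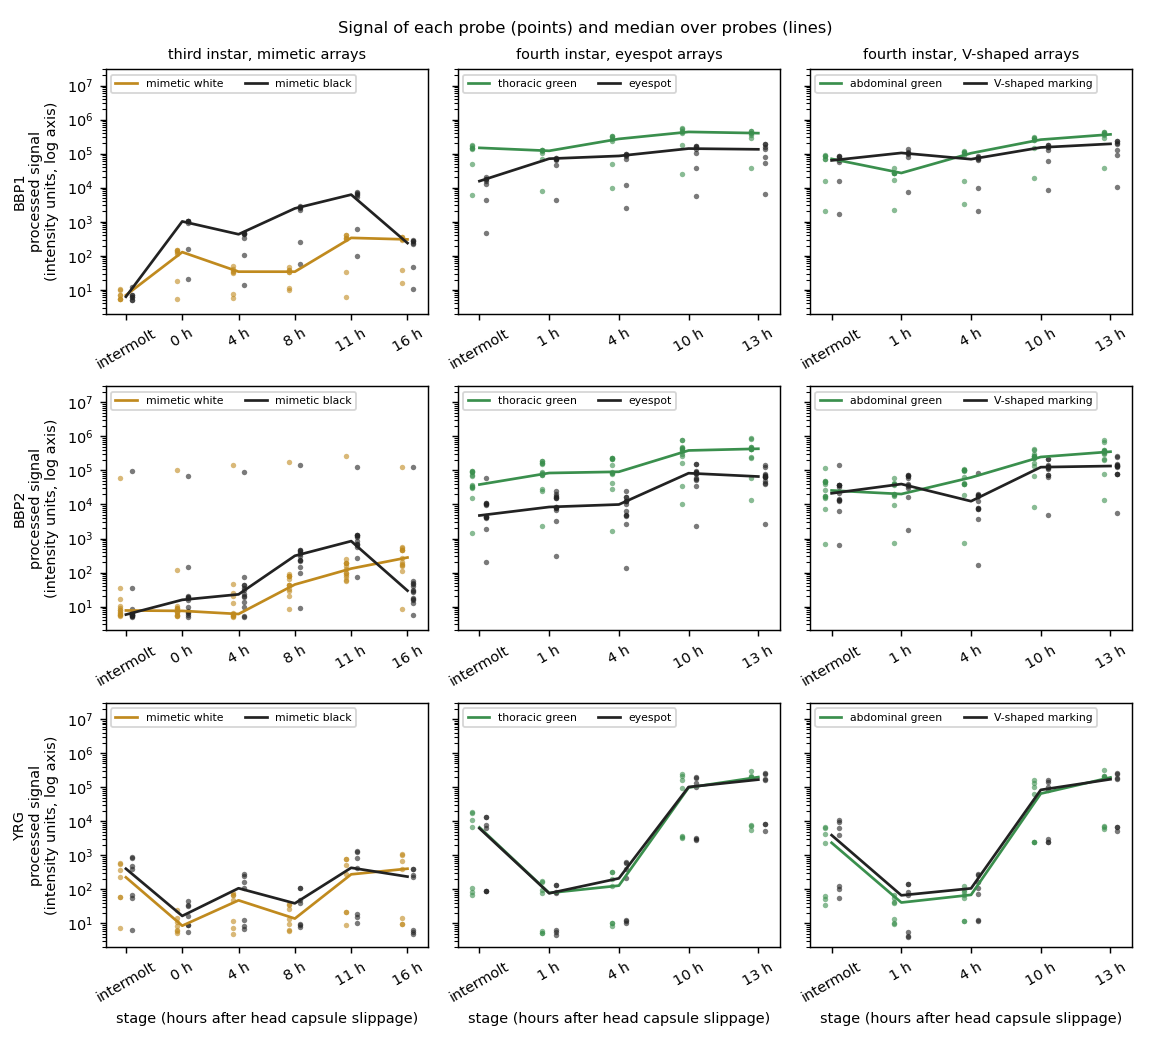
Processed signal (arbitrary units, log axis) of BBP1, BBP2 and YRG against stage (intermolt, then hours after head capsule slippage), with 1 column for each pairing of a pale and a dark region. Points are single probes and lines join the medians over probes. The medians of BBP1 and BBP2 are higher at every fourth-instar stage than at any third-instar stage, and YRG has a trough at 1 and 4 h of the fourth molt before its highest levels at 10 and 13 h.

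A gene was counted as parted between the 2 regions of an array when its mean log2 ratio was at least 1 in size and all its measured probes, those well above background in at least 1 channel, went the same way. By that rule BBP1 parted at 0 h, the first stage of the third molt, with a log2 ratio of black to white of 2.79 (SD 0.38 over 7 probes), and stayed parted with 3.22 at 4 h, 5.36 at 8 h and 4.17 at 11 h. Of the sequences measured, 3.54% had parted towards black at 0 h, 1.12% at 4 h, 2.51% at 8 h and 4.11% at 11 h. BBP1 had the highest ratio of 3191 sequences at 8 h and the second highest at 4 and 11 h. The SD over probes was 1.09 at 4 h, 1.435 at 8 h and 0.12 at 11 h. In white only 4 of 7 probes at 4 h and 5 of 7 at 8 h were well above background. At 16 h its ratio was -0.29, and the probes were divided, with 5 of the 6 measured ones higher in white.

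Over all 6 mimetic stages BBP1 was 2.53 ± 0.63 (SE) log2 units higher in black, which narrowly missed the threshold of 0.05 across all sequences (limma adjusted p = 0.0502, unadjusted p = 0.00112), while 2.13% of 3380 sequences passed it. None of the 3 genes passed in this comparison. Without the intermolt array the BBP1 difference was 3.05 (limma adjusted p = 0.0179) and without the 16 h array 3.09 (limma adjusted p = 0.0284), so the call turned on 2 stages, one with the gene below background and one with a ratio near 0. The muscle genes also differed on these arrays, and their part in the result was not tested. All 12 were lower in black from 0 to 11 h, with a median log2 ratio between -0.44 and -1.08. At intermolt 10 of 12 were higher in black with a median of 0.57, and at 16 h 7 of 12 with a median of 0.03.

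In the fourth instar BBP1 was abundant in every region from intermolt onwards, and on the eyespot arrays the pale region, here green, was the higher. In thoracic green and eyespot the medians were 148000 and 15600 at intermolt, 121000 and 71100 at 1 h, 271000 and 85600 at 4 h, 435000 and 141000 at 10 h, and 400000 and 134000 at 13 h. Green was above the eyespot at all 5 stages, and all 7 probes went that way on every one of these arrays. The log2 ratios of eyespot to green were -3.33 at intermolt, -0.77 at 1 h, -1.80 at 4 h, -1.85 at 10 h and -1.80 at 13 h. BBP1 was therefore already parted before the molt, when 2.3% of sequences had parted towards green, fell short of the rule at 1 h, and was parted again at 4, 10 and 13 h, when 4.87%, 4.42% and 5.19% had. Between intermolt and 1 h the eyespot level went up 5.43-fold, as the mean over probes, and that of green changed by -0.12 log2 units.

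In abdominal green and the V-shaped marking BBP1 gave a less steady order. The medians were 70100 and 63200 at intermolt, 27000 and 105000 at 1 h, 103000 and 68700 at 4 h, 258000 and 152000 at 10 h, and 368000 and 194000 at 13 h. The marking was thus higher at 1 h only, with a log2 ratio of 1.96 (SD 0.16 over 7 probes), at a stage where 2.62% of sequences had parted towards the marking. That array held the most outlier spots, none of them BBP1 spots. From then on the ratio moved towards green, with -0.59 at 4 h, -0.95 at 10 h and -1.24 at 13 h, and only at 13 h did BBP1 part with green higher, as 2.14% of sequences did.

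**Figure D2:**
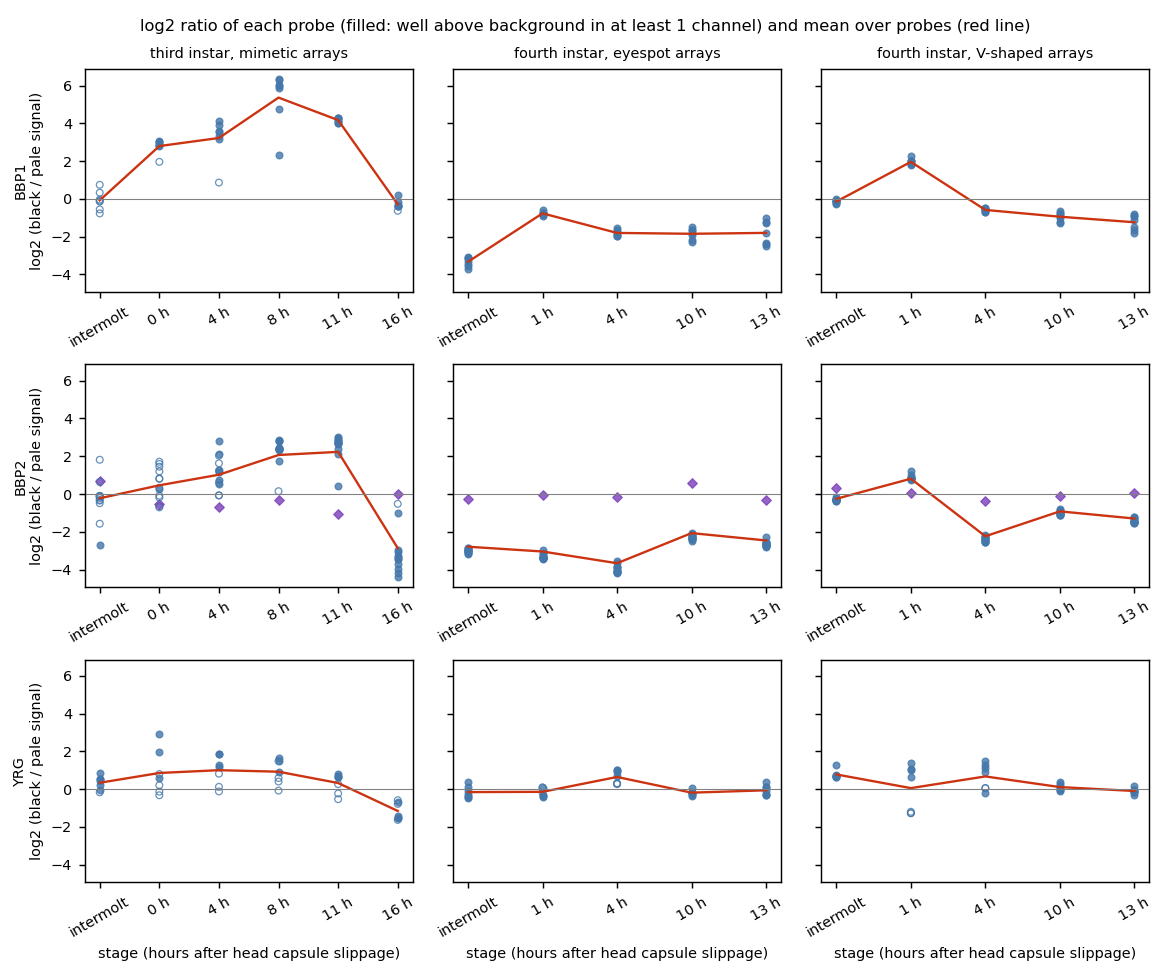
Log2 ratio of dark to pale signal for BBP1, BBP2 and YRG against stage, with values above 0 higher in the dark region. Points are single probes, filled where well above background in at least 1 channel, diamonds are the BBP2 probe that stood apart, and red lines join the means over probes. BBP1 reaches a mean of 5.36 at 8 h of the third molt and lies below 0 on all 5 eyespot arrays, while BBP2 swings from 2.23 at 11 h to -2.87 at 16 h.

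Over the 5 stages the eyespot was lower than thoracic green in BBP1 by a log2 difference of -1.91 ± 0.69 (SE), which did not pass (limma adjusted p = 0.139). Fitted to the eyespot arrays alone, the SE was 0.34 and the difference again did not pass (limma adjusted p = 0.161). The V-shaped marking differed from abdominal green by -0.19 ± 0.69 (SE) (limma adjusted p = 0.922). That last value was -0.73 without the 1 h array and 0.07 without the 13 h array, with no call. The eyespot effect was -1.72 ± 0.98 log2 units away from that of the V-shaped marking, which also did not pass (limma adjusted p = 0.932). In that test no sequence of 3380 passed, and 177 had an unadjusted p under 0.05. For each cryptic comparison limma called 3.08% (eyespot) and 1.48% (V-shaped marking) of the sequences.

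BBP2, the second putative carrier, came on later than BBP1 in the third molt. The medians over 13 probes were 7.70 and 5.83 at intermolt, 7.49 and 15.8 at 0 h, 6.06 and 22.9 at 4 h, 44.6 and 311 at 8 h, 131 and 839 at 11 h, and 277 and 29.4 at 16 h, in white and black. Most of the probes were well above background from 4 h in black (7 of 13) and from 8 h in white (10 of 13). Without the probe described next, which was bright in every sample, 6 of 12 were so in black at 4 h, and both regions came on at 8 h, with 11 of 12 in black and 9 of 12 in white. Black was above white from 0 to 11 h, peaked at 11 h and was low again at 16 h, whereas white had its highest level then. At that last stage the regions had changed places, with a log2 ratio of -2.87 (SD 1.43 over probes), the sixth lowest of 3110 sequences.

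One of the 13 probes of BBP2 stood apart from the rest, and it was singled out after the values were seen. It was well above background in 32 of 32 samples, with signals of 24400 to 273000, and it was brightest in the third instar, where the other probes were dim. Its log2 signal correlated with the mean of the other 12 at r = -0.51 over the 32 samples, whereas the other 12 probes had r between 0.97 and 1.00 with the rest of the gene. These samples share arrays and larvae, and the r values are descriptions. Whether this probe detects the same transcript was not tested.

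**Figure D3:**
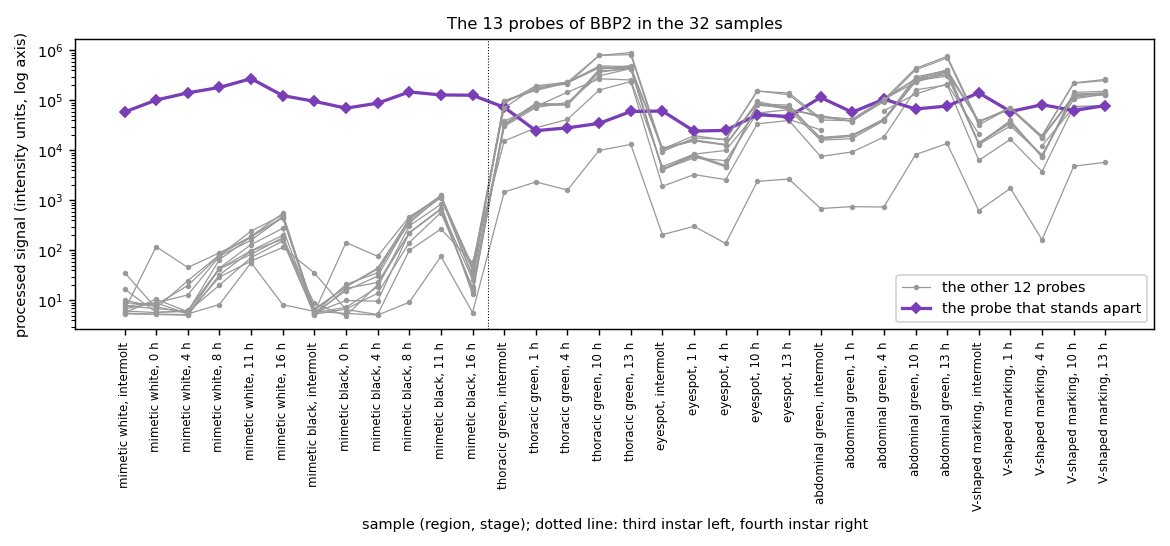
Processed signal (arbitrary units, log axis) of the 13 BBP2 probes in the 32 samples, each line 1 probe, with the third instar left of the dotted line. The probe that stood apart, in purple with diamonds, stays between 24400 and 273000, while the other 12, in grey, lie near background or low in the third instar and higher in the fourth.

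Because that probe went against the others, BBP2 as a whole met the parting rule at no third-instar stage. With the other 12 probes the log2 ratio of black to white was 0.54 at 0 h, 1.16 at 4 h, 2.26 at 8 h, 2.51 at 11 h and -3.11 at 16 h, and the gene parted towards black at 4, 8 and 11 h and towards white at 16 h, where 0.965% of sequences did. Averaged over the 6 mimetic stages the signs were mixed, and the difference of 0.45 ± 0.52 (SE) did not pass (limma adjusted p = 0.696). It was 1.11 without the 16 h array (limma adjusted p = 0.168), 1.44 without the intermolt and 16 h arrays (limma adjusted p = 0.0736), 0.12 without the 8 h array and 0.09 without the 11 h array.

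In the fourth instar BBP2 was well above background on all its probes in every region, and it was higher in green than in the eyespot at all 5 stages. The medians in thoracic green and eyespot were 38600 and 4750 at intermolt, 84200 and 8450 at 1 h, 91500 and 10000 at 4 h, 387000 and 83100 at 10 h, and 434000 and 66400 at 13 h. The highest eyespot value, 83100, lay above the green values of the intermolt stage, but on each array green was the higher. The log2 ratios were -2.79, -3.04, -3.67, -2.07 and -2.46 in the same order, and the gene was parted from intermolt on, at 1 h with 5.48% of sequences, except at 10 h, where the probe that stood apart alone went the other way. At 1 h, where BBP1 gave -0.77, BBP2 gave -3.04.

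Over the 5 stages BBP2 was the only 1 of the 3 genes that passed between eyespot and green, with a log2 difference of -2.81 ± 0.57 (SE) (limma adjusted p = 0.0144). Only 5 of 3380 sequences had a lower value. On these arrays all 12 muscle genes were higher in the eyespot at 10 h (median log2 ratio 0.70), and collagen type IV had a log2 ratio of -1.03 at 13 h. Their part in the result was not tested. With any 1 stage left out the difference ran from -2.99 to -2.59 and kept its call. Fitted to the eyespot arrays alone it also kept its call, with an SE of 0.23 (limma adjusted p = 0.0225). The probe that stood apart gave -0.04 on its own, and the other 12 gave -3.04 (limma adjusted p = 0.0156).

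In abdominal green and the V-shaped marking the BBP2 medians were 25800 and 21300 at intermolt, 20300 and 39900 at 1 h, 62200 and 12500 at 4 h, 249000 and 125000 at 10 h, and 356000 and 135000 at 13 h. As for BBP1, the marking was the higher one at 1 h only (log2 ratio 0.81), on the array with the most outlier spots. After that green led with -2.24 at 4 h, -0.92 at 10 h and -1.30 at 13 h. BBP2 was parted at 4 h, as 6.14% of sequences were, and with the other 12 probes again at 13 h. Collagen type IV, the only gene listed as a marker of fat body and haemocytes, had log2 ratios of -0.96 at 1 h, -1.36 at 4 h and 2.02 at 13 h on these arrays. Its part in the result was not tested.

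The V-shaped marking as a whole was -0.78 ± 0.57 log2 units from abdominal green in BBP2 (limma adjusted p = 0.543), with -0.42 when the 4 h array was left out and -1.18 when the 1 h array was. Both markings together were lower than green in BBP2 by a log2 difference of -1.79 ± 0.40 (SE) (limma adjusted p = 0.0131), in a comparison where 10.6% of sequences passed. BBP1 gave -1.05 ± 0.49 there and did not pass (limma adjusted p = 0.182). The BBP2 call was lost when both arrays at 4 h were left out (-1.50, limma adjusted p = 0.0563). The eyespot effect on BBP2 was -2.03 ± 0.80 log2 units from that of the V-shaped marking (limma adjusted p = 0.893).

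YRG changed with the stage of the molt in every region, and its differences between dark and pale were small beside those changes. In the third instar its medians in white and black were 226 and 404 at intermolt, 8.56 and 16.6 at 0 h, 47.7 and 108 at 4 h, 13.9 and 38.9 at 8 h, 277 and 431 at 11 h, and 405 and 237 at 16 h. It was thus present before the molt, close to background when the head capsule slipped, where 0 of 7 probes in white and 3 of 7 in black were well above background, and back near its intermolt level by 11 h. Black was the higher region up to 11 h and white at 16 h. YRG met the parting rule towards black at 4 h (log2 ratio 1.00 over 7 probes, 4 of 4 measured), as 1.12% of sequences did. It met the rule towards white at 16 h (-1.15, 4 of 4 measured), as 0.965% of sequences did. Over all 6 stages the difference was 0.38 ± 0.22 (SE) and did not pass (limma adjusted p = 0.372). Without the 16 h array it was 0.69 (limma adjusted p = 0.0425), where 49 of 3380 sequences passed.

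In the fourth instar YRG was again low early in the molt and high late in it. In thoracic green and eyespot the YRG medians were 6640 and 6220 at intermolt, 78.5 and 76.8 at 1 h, 129 and 211 at 4 h, 98100 and 102000 at 10 h, and 199000 and 168000 at 13 h. In abdominal green and the V-shaped marking they were 2340 and 3920, 41.1 and 66.9, 69.1 and 107, 65200 and 83900, and 194000 and 172000 at the same stages. All 4 regions were lower at 1 h than at intermolt, and all 4 had their highest value at 13 h. At 4 h only 4 of 7 probes were well above background in thoracic green and eyespot, and 5 of 7 in abdominal green and the V-shaped marking.

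Pale and dark regions did not part in YRG at any fourth-instar stage. The log2 ratios lay between -0.19 and 0.64 on the eyespot arrays and between -0.10 and 0.78 on the V-shaped arrays. The mean differences were 0.02 ± 0.25 (SE) for the eyespot (limma adjusted p = 0.973) and 0.30 ± 0.25 (SE) for the V-shaped marking (limma adjusted p = 0.583). With only spots well above background in both channels they were 0.05 and 0.59, and neither passed (limma adjusted p = 0.949 and 0.395). At 1 h all 4 measured probes were higher in the V-shaped marking, although the mean log2 ratio over all 7 probes was 0.06.

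The changes between stages were tested on the 10 fourth-instar arrays, with the stage and the body region of the array in the model and 2 arrays a stage. The 2 arrays of a stage came from different body regions, so no stage was replicated within a region. A p-value in these tests measures how far the eyespot and V-shaped arrays disagree in their changes between stages, and not the spread between larvae. These comparisons call a large share of the array, 58.8% of sequences between intermolt and 1 h and 55.4% between 4 and 13 h. YRG was -5.23 ± 0.23 (SE) log2 units from its intermolt level at 1 h (limma adjusted p = 1.07e-06), lower on both arrays, and only 68 sequences had a lower value. Some of its probes were below background at 1 h, and with dim spots raised to the lowest signal well above background, an alternative chosen after the values were seen, the change was -4.38. BBP1 (0.59, limma adjusted p = 0.183) and BBP2 (0.54, limma adjusted p = 0.0758) did not pass at this step.

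Between 4 and 13 h all 3 genes rose. YRG gained 9.54 ± 0.23 (SE) log2 units (limma adjusted p = 1.79e-07), or 8.83 with dim spots raised, and stood 36th of 3380. BBP2 gained 2.72 ± 0.23 (SE) (limma adjusted p = 4.14e-05) and BBP1 1.57 ± 0.35 (SE) (limma adjusted p = 0.00659). The BBP1 call was lost without the V-shaped array at 4 h (1.16, limma adjusted p = 0.0505) or at 13 h (1.29, limma adjusted p = 0.0564).

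Between the instars, BBP1 and BBP2 had the highest fitted gains among the P. xuthus sequences, against third-instar levels that were in part below background. The means over all regions of a stage were compared, 5 stages of the fourth instar against 6 of the third. BBP1 was 9.42 ± 0.98 (SE) log2 units higher in the fourth instar and BBP2 9.37 ± 0.99 (SE), both with limma adjusted p = 0.00246. They ranked first and second of 3380 sequences, of which 4 (0.118%) passed, and the median over all sequences was -0.23. With dim spots raised the gains were 8.94 and 8.68. In BBP1 the highest third-instar sample, as a geometric mean over probes, was 2557 and the lowest fourth-instar sample 8306, and in BBP2 they were 1003 and 5518, so the 12 and 20 samples did not overlap in either gene, as was the case in 0.119% of 3375 sequences in this direction.

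**Figure D4:**
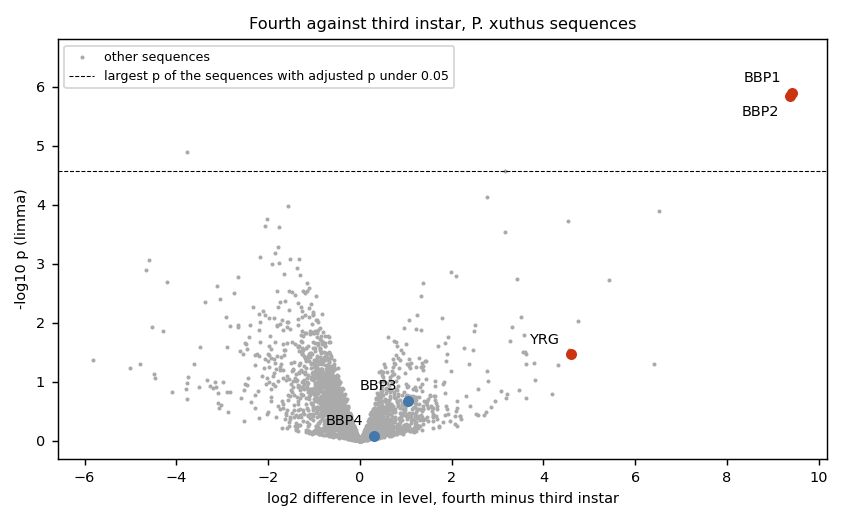
Log2 difference in level between the fourth and the third instar (x axis) against the size of the limma p-value as -log10 p (y axis), each point 1 of 3380 P. xuthus sequences, with the 3 genes in red and the relatives BBP3 and BBP4 in blue. The dashed line marks the largest p among the 4 sequences that passed, and BBP1 (9.42) and BBP2 (9.37) stand at the far right above it, with YRG (4.60) below it.

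YRG gained 4.60 ± 1.90 (SE) log2 units and did not pass (limma adjusted p = 0.547), although it ranked seventh, and its 5 fourth-instar stages ran from near background to its highest levels. Its samples overlapped between the instars. The BBP2 gain depended on the probes. Without the probe that stood apart it was 10.23 (limma adjusted p = 0.00218), that probe alone gave -1.06, and the log2 of the linear mean over the 13 probes, in which the bright probe weighs most, gave 2.81 (limma adjusted p = 0.110). The regions sampled differed between the instars, and so did the hours, which cannot be told apart from the instar here.

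Ordered by the mean over stages, BBP1 was highest in thoracic green (geometric mean 146400), followed by abdominal green (69660), the V-shaped marking (60980), the eyespot (38910), mimetic black (245.9) and mimetic white (42.55). BBP2 had the same order, with 110500, 61150, 35560, 15800, 78.1 and 57.3. Between neighbours among the cryptic regions the gaps were at most 1.17 log2 units in either gene, and the SD over stages within a region was 0.82 to 1.72. The step from the cryptic to the mimetic regions was 7.31 in BBP1 and 7.66 in BBP2. The SD over stages takes no account of the matching of regions by stage, which the paired comparisons use. In YRG the 4 cryptic regions lay within 976.9 and 1369, with SDs over stages of 4.78 to 4.97, and no order can be read from them.

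The unmarked thorax and abdomen carried the same dye but lay on different arrays, whose signals were not scaled to each other. BBP1 was 2.20-fold higher in thoracic than in abdominal green at intermolt, 4.14-fold at 1 h, 2.79-fold at 4 h, 1.56-fold at 10 h and 1.03-fold at 13 h. BBP2 went from 1.74-fold and 3.61-fold to 1.85-fold, 1.43-fold and 1.16-fold at the same stages. By the means over probes, thorax was the higher at all 5 stages in both genes, but the BBP2 probe that stood apart was higher in abdomen at all 5 and gave a mean log2 difference of -1.02 on its own (limma adjusted p = 0.204). The mean log2 differences of 1.07 ± 0.29 (SE) for BBP1 (limma adjusted p = 0.226), 0.85 ± 0.24 (SE) for BBP2 (limma adjusted p = 0.244) and 0.47 ± 0.20 (SE) for YRG (limma adjusted p = 0.376) did not pass. In this comparison limma called 0 sequences of 3380, and 446 had an unadjusted p under 0.05.

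BBP1 and BBP2 were each other's nearest sequence among the 3144 well above background in at least 16 samples, with r = 0.97 for the log2 level over 32 samples and r = 0.89 for the log2 ratio over 16 arrays. The next sequences reached 0.87 with BBP1 and 0.92 with BBP2 in level. YRG came 36th in likeness to BBP1 (r = 0.58) and 24th in likeness to BBP2 (r = 0.66), and the 3 sequences nearest to it, which have no gene number in the tables used, had r between 0.93 and 0.95. The points share arrays, dyes and stages, and these values describe likeness only.

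BBP3, with 4 probes of which 1 was dim in most samples, was highest at 0 h of the third molt (31500 in white, 36050 in black) and at 1 h of the fourth (43650 to 97450 over the 4 regions), earlier than the peaks of BBP1 and BBP2. Its level between the instars differed by 1.04 ± 0.78 (SE) log2 units (limma adjusted p = 0.779). On the V-shaped arrays BBP3 parted towards green at intermolt (log2 ratio -1.19, as 1.94% of sequences did) and at 4 h (-1.09, 6.14%). At 13 h it parted towards the marking (1.46, 6.96%). BBP4, with 2 probes, also parted towards black in the third molt, at 8 h (log2 ratio 2.32), 11 h (3.86) and 16 h (1.56). At these stages 2.51%, 4.11% and 1.35% of sequences did so. In the fourth instar BBP4 was near background until 4 h and rose by 6.89 ± 0.24 (SE) log2 units between 4 and 13 h (limma adjusted p = 5.05e-07), to 601.5 to 2900 over the 4 regions. On the V-shaped arrays it parted towards green at 13 h (log2 ratio -2.27, as 2.14% of sequences did). It also parted there at intermolt (1.21, 1.45% towards the marking) and 1 h (-1.03, 5.53% towards green), each with 1 measured probe. Between the instars BBP4 differed by 0.31 ± 1.33 (SE) log2 units (limma adjusted p = 0.979). The putative carotenoid-binding proteins PCBP1 and PCBP2 gave log2 differences of -5.02 and 1.92 between mimetic black and white and of -3.46 and 5.48 between eyespot and green. The PCBP2 difference between mimetic black and white did not pass (limma adjusted p = 0.108), and the other differences did. Of the 8 PCBP2 probes, 1 gave -4.25 in that comparison and the rest gave 2.59 to 3.09.

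**Figure D5:**
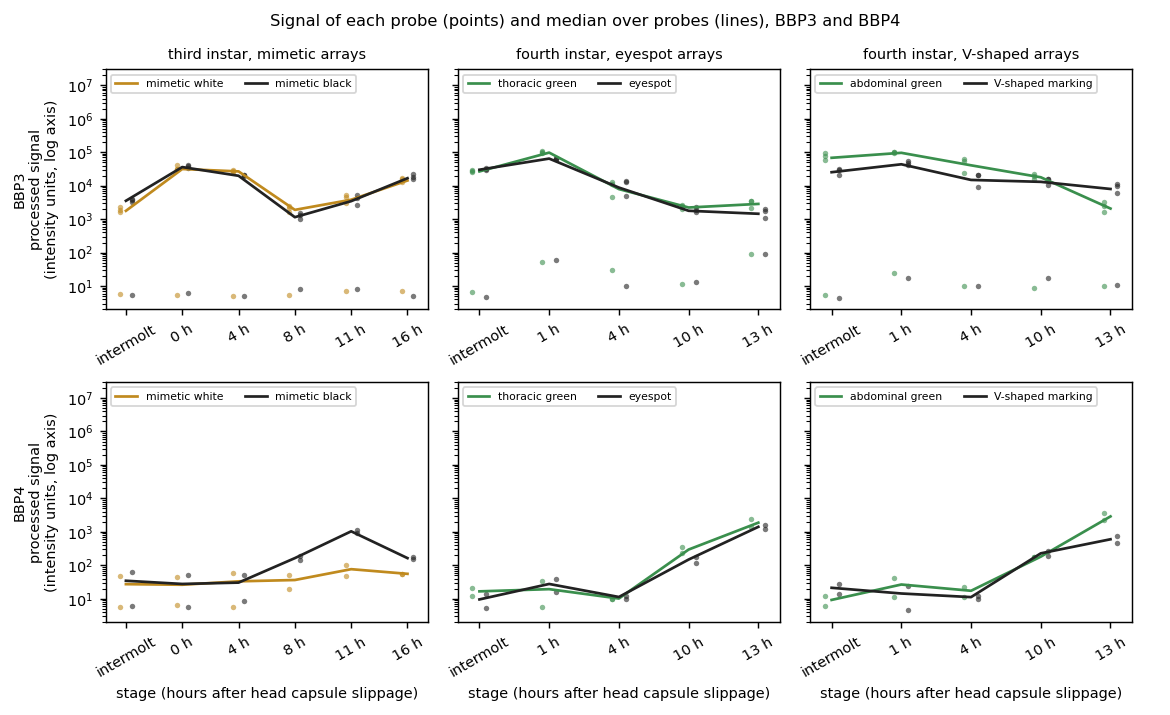
Processed signal (arbitrary units, log axis) of the relatives BBP3 and BBP4 against stage, with points for single probes and lines joining the medians over probes. BBP3 is highest at 0 h of the third and 1 h of the fourth molt, and BBP4 at 11 h of the third and 13 h of the fourth molt.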

How the data were processed

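Larval epidermis of P. xuthus was labelled by the study from total RNA, Cy3 for the pale and Cy5 for the dark region, and read on two-colour 60-mer arrays. The deposited files hold processed intensity values per spot, which the authors' scanner software had background-subtracted and dye-normalized, and which are not scaled between arrays. The file headers name Feature Extraction 9.5.3.1, whereas the methods name another version. The per-spot and per-chip normalization given in the methods is not carried by these files. A deposited series table of log10 ratios matched them within 0.005 and served as an alternative. No other sample columns were used.

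The 10 arrays of the fourth instar have titles naming the mimetic pattern, while their source and tissue labels name cryptic regions. The latter were used. Genes were paired with probes through the gene numbers of the study's tables, and Px-1779, another lipocalin, could not be paired.

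Processed signals were taken to log2 and averaged over the probes of a sequence. No spot was removed for being dim, and outlier spots were left out. Tests were made with limma 3.58.1 in R 4.3.3 across 3380 sequences, with Benjamini-Hochberg adjustment and a threshold of 0.05, after the scripts were tested on simulated data. Arrays give no counts, so the number of arrays limits the precision. Onset was the first stage with most of the probes well above background. Named genes were the 3 members, the relatives BBP3 and BBP4, PCBP1 and PCBP2. Members, lists and tests were chosen with earlier results of these data known. Alternatives covered background correction, scaling, dim spots, probe summary, slide, stage block and leaving out each stage.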

Additional observations from a re-analysis of the deposited data

Results flagged for a closer look

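In each of the 27 sets of values examined (log2 ratios of each gene and comparison, and levels of each gene and region), the most extreme stage was set against the rest by Dixon's test, which picks out about 1 set in 20 by chance. It picked out 2, both in YRG. The YRG log2 ratio of eyespot to thoracic green was 0.64 at 4 h, far from the other 4 stages, which lay between -0.19 and -0.06. The YRG log2 ratio of mimetic black to white was -1.15 at 16 h, far from the other 5 stages, which lay between 0.33 and 1.00.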

How the results depend on the processing

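Of 364 values of 27 results under alternative settings, 343 stayed on their side of the limma threshold, 7 fell below it, 11 passed it and 3 turned round. Among the 343, 7 uncalled values had the other sign, 4 of them for YRG in the eyespot (the lowest -0.14), 1 for BBP1 in the V-shaped marking (0.07), and 2 for BBP2 with the probe that stood apart alone (-0.31 mimetic, -1.02 thorax against abdomen). The mimetic difference of BBP1, 2.53, passed with the series table (2.54), with spots well above background in both channels (3.29), with slide as a block (2.64), and, chosen after seeing the data, without intermolt and 16 h (3.89). It did not pass with log2 ratios centred on the array median (2.55) or with normexp and loess (1.61, limma adjusted p = 0.0706). Nor did it pass with dim spots raised (2.19, limma adjusted p = 0.0753) or on its own arrays alone (2.53, limma adjusted p = 0.149). Leaving out 1 stage it ran from 1.96 to 3.09, and was 3.05 without intermolt. The mimetic difference of YRG passed without intermolt and 16 h (0.78) and ran from 0.26 to 0.69 with 1 stage left out. Also chosen after seeing the data, the BBP2 probe that stood apart alone gave -0.041 for the eyespot, -0.029 for both markings and 0.37 between 4 and 13 h, without a call, and turned round the instar difference (-1.06) and the 1 h step (-1.28). Keeping only probes well above background in every sample left that probe alone and also gave -1.06, and gave no value for BBP1 or YRG between the instars. The linear mean over probes gave 2.81 for the instar difference of BBP2. The 1 h step passed with normexp, loess and Aquantile for BBP1 (0.77) and BBP2 (0.65), and for BBP2 without the probe that stood apart (0.68). With 1 stage or array left out, the difference of BBP2 over both markings ran from -1.96 to -1.50 and the gain of BBP1 between 4 and 13 h from 1.16 to 1.98. The causes were not tested.

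Counts of called sequences moved more. The mimetic comparison called 72, from 7 (its own arrays alone), with 130 under normexp, 133 with slide as a block and 40 with dim spots raised, and 13 to 115 with 1 stage left out. The eyespot called 104 (4 to 142), the V-shaped marking 50 (1 to 124), both together 358 (166 to 410) and the instars 4 (1 to 14). Tested as 8697 single probes, 311, 336, 181 and 1058 probes were called for the mimetic, eyespot, V-shaped and joint comparisons. Thorax against abdomen called 0 to 5. The eyespot and V-shaped arrays of a stage share a stage number, but their deviations correlated between -0.19 and 0.47, and the pairing could not be taken as given. With stage as a replicate block (correlation 0.28) both markings together called 166 sequences, eyespot against V-shaped marking 1 in place of 0, and the BBP2 difference of -1.79 kept its call. Probes near background, as in the intermolt of the third instar, limit what can be said there.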
